A study of Rattus norvegicus with 2 samples.

Results

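The genes described here are 9 genes of the extracellular matrix, chosen by symbol from a deposited table of 2325 rows. They are Postn, Dcn, Col8a1, Mfap4, Mamdc2 and Tinagl1, which encode matrix proteins, and Mmp2, Timp3 and Serpinh1, which encode proteins that cut the matrix, protect it or help to build it. Each symbol matched 1 row. The study set rat bone marrow mesenchymal stem cells (bmMSCs), taken 10 days after they were transfected with Pdx1 and Ngn3, against untransfected bmMSCs that served as its negative control. Both groups were Sprague-Dawley cells at passages 3 to 5, and each is represented by 1 sequencing library. Pdx1 and Ngn3 (gene symbol Neurog3) are transcription factors of pancreas and endocrine cell development. The control received no transfection, so the procedure and the introduced genes cannot be told apart. No day is given for the control, so a difference in time in culture cannot be told apart from them either. The sources used here name neither the vector nor the age of the rats.

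The extracellular matrix is the mesh of proteins and sugar chains that stromal cells secrete around themselves. Collagen and elastic fibres give it strength and recoil, small proteoglycans and matricellular proteins bind to the fibres and to cells, and the basement membrane is a separate thin sheet of type IV collagen, laminins and nidogens. Metalloproteinases cut these proteins, tissue inhibitors of metalloproteinases (TIMPs) block the enzymes, and chaperones in the endoplasmic reticulum fold new collagen before it is secreted. Bone marrow stromal cells are a known source of such proteins and of the enzymes that remodel them.

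The table gives the number of reads per gene and RPKM, which is reads scaled by gene length and by library size. The library totals implied by these columns were 7415094 reads for the transfected and 7800831 reads for the untransfected library. Every listed gene had already passed the authors' own selection for change (no log2 ratio in the authors' deposited table was smaller in size than 1.00), so genes outside the table were not analysed here. A gene is called higher or lower below when its ratio of transfected to untransfected reads, scaled by library totals, was at least 2-fold and the exact 95% interval of that ratio excluded 1. By this rule 63.5% of all rows were higher and 36.5% lower, so no listed gene lay in between. The 9 genes were chosen from this same contrast, and their 7 higher and 2 lower calls are therefore a description. All intervals cover counting error only, and with 1 library per condition the spread between cultures is unknown, so no test across replicates was made. With a threshold of 3-fold, 4 of the 9 genes were higher (36.8% of all rows) and 2 lower (19.1% of all rows), and an interval widened by an assumed biological coefficient of variation of 0.4 gave the same counts (33.5% and 17.2% of all rows). The 3-fold and the widened rule kept Postn, Dcn, Mfap4 and Mamdc2 as higher. Pdx1 itself had 565 reads in transfected cells and 0 in untransfected cells.

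**Figure D1:**
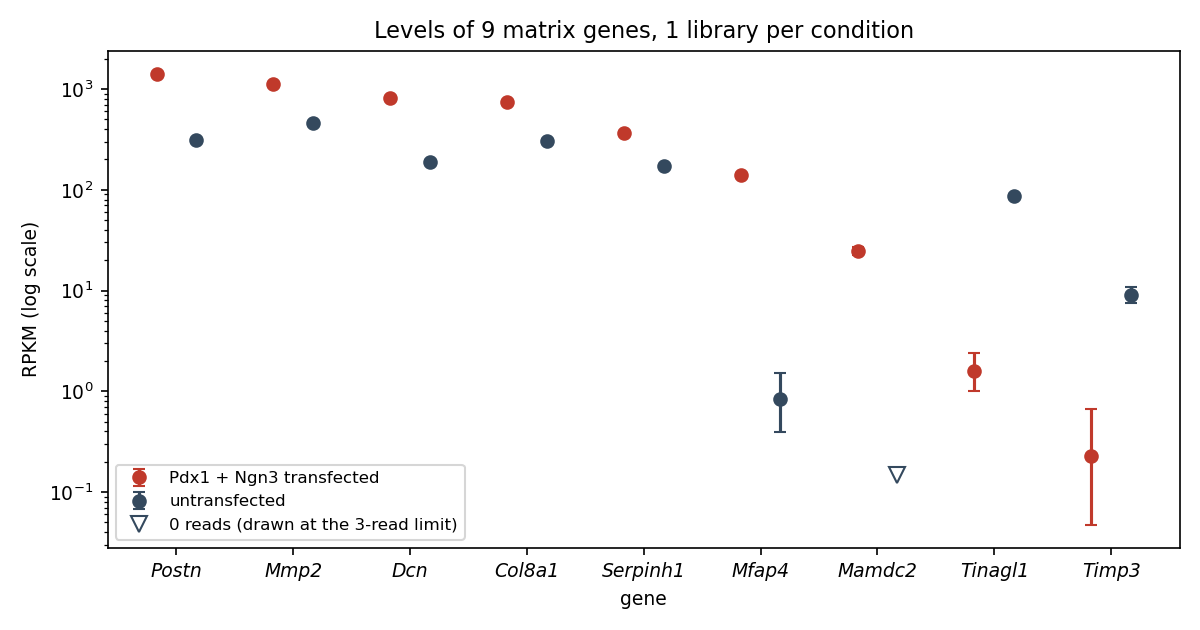
RPKM (log axis) of the 9 matrix genes in the Pdx1 + Ngn3 transfected library (red, left of each pair) and the untransfected library (dark, right), with exact 95% Poisson intervals that are often smaller than the point. The open triangle marks 0 reads, drawn at the level that 3 reads would give. Tinagl1 and Timp3 are the genes with the transfected point below the untransfected one.

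Postn, periostin, is a secreted matricellular protein that binds collagen and integrins. It had 33325 reads (1415 RPKM, interval 1399 to 1430) in transfected cells and 7750 reads (313 RPKM, interval 306 to 320) in untransfected cells. The ratio was 4.52 (interval 4.41 to 4.64). Among the 2325 rows, Postn ranked 7 by RPKM in transfected cells and 50 in untransfected cells. The RefSeq promoter of Postn is shown because it belongs to the member with the most transfected reads. This window and those below run 5′ to 3′ from 250 bases before the gene start to 50 bases after it in the GRCr8 assembly. Capitals mark matches to CANNTG (the E-box, which factors of the Ngn3 class bind), TAAT or its reverse complement ATTA (the core that homeodomain factors such as Pdx1 bind) and GGAATG or CATTCC (the M-CAT motif of TEAD factors).
Postn, GRCr8 chr2:140677811-140678110, plus strand: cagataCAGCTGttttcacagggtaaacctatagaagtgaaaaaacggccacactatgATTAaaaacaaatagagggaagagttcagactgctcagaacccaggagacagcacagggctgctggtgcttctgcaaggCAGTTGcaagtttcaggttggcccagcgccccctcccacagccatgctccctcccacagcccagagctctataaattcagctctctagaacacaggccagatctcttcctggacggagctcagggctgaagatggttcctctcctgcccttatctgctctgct

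Dcn, decorin, is a small leucine-rich proteoglycan that decorates collagen fibrils. It had 10379 reads (814 RPKM, interval 798 to 830) in transfected cells and 2555 reads (190 RPKM, interval 183 to 198) in untransfected cells. The ratio of 4.27 (interval 4.09 to 4.46) was close to that of Postn. The quotient of the 2 ratios, Postn over Dcn, was 1.06 (interval 1.01 to 1.11). Periostin transcripts thus outnumbered decorin transcripts per length by a similar factor in both libraries, 1.74 (interval 1.70 to 1.78) in transfected cells and 1.64 (interval 1.57 to 1.72) in untransfected cells.

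Col8a1 encodes the alpha 1 chain of type VIII collagen, a short-chain collagen that forms networks. It had 13516 reads (749 RPKM, interval 737 to 762) in transfected cells and 5836 reads (308 RPKM, interval 300 to 316) in untransfected cells, a ratio of 2.44 (interval 2.36 to 2.51). Its partner chain Col8a2 went the other way, with 43 reads (1.43 RPKM) in transfected cells and 281 reads (8.87 RPKM) in untransfected cells. The quotient of Col8a1 over Col8a2 RPKM was 525 (interval 390 to 726) in transfected cells and 34.7 (interval 30.8 to 39.2) in untransfected cells. The reference cDNA of Col8a1 ends with its coding region (bases 201 to 2432 of 2432), so its RPKM rests almost entirely on coding sequence, which made up 91.8% of the length. For Timp3 the coding share of the reference cDNA was 35.8%.

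Mfap4, a glycoprotein of elastic fibre microfibrils, was near the detection limit in untransfected cells. It had 1590 reads (139 RPKM, interval 132 to 146) in transfected cells and 10 reads (0.831 RPKM, interval 0.399 to 1.53) in untransfected cells. Of the 2325 rows it ranked 8 by ratio (167-fold, interval 90.7 to 349). By RPKM it ranked 110 in transfected cells and 1974 in untransfected cells. Mfap5, another microfibril glycoprotein, differed in the opposite direction, at 26.2 RPKM in transfected cells and 153 RPKM in untransfected cells. The order of these microfibril genes was thus exchanged, with an Mfap4 over Mfap5 quotient of 5.31 (interval 4.56 to 6.21) in transfected cells and 0.00543 (interval 0.00259 to 0.0100) in untransfected cells.

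Mamdc2 encodes a secreted protein of the proteoglycan-rich matrix with MAM domains. It had 468 reads (24.5 RPKM, interval 22.3 to 26.8) in transfected cells and 0 reads in untransfected cells. The untransfected count of 0 corresponds to 0.149 RPKM at the floor of 3 reads and allows up to 0.184 RPKM by the exact interval. With 3 reads in place of 0 the ratio was 164, and by the exact interval Mamdc2 was at least 133-fold higher. Mamdc2 and Mfap4 could not be ordered by their ratio, since the interval of the quotient of their ratios reached from 0 to 1.52 (Mfap4 over Mamdc2). RefSeq gives Mamdc2 more than 1 start, and 1 of its windows is shown because this gene had reads in the transfected library alone.
Mamdc2, GRCr8 chr1:230442942-230443241, minus strand: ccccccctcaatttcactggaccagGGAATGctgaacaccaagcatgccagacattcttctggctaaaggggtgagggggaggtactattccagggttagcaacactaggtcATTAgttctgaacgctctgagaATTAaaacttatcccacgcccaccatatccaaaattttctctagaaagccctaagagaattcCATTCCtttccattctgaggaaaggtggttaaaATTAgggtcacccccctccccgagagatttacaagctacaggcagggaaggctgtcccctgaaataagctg

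Tinagl1, tubulointerstitial nephritis antigen-like 1, is a secreted protein of basement membranes. It had 23 reads (1.59 RPKM, interval 1.01 to 2.39) in transfected cells and 1307 reads (86.1 RPKM, interval 81.5 to 90.9) in untransfected cells. It was 54.0-fold lower (interval 35.8 to 85.5) and took place 2 of 2325 counted from the lowest ratio. By RPKM it ranked 2048 in transfected cells and 154 in untransfected cells. Per length, Tinagl1 stood at 0.0125 (interval 0.00793 to 0.0188) of the level of Nid1, a nidogen of the same structure, in transfected cells and at 0.299 (interval 0.282 to 0.317) in untransfected cells. The promoters of Tinagl1 and Timp3 are shown as those of the 2 lower genes.
Tinagl1, GRCr8 chr5:147807214-147807513, minus strand: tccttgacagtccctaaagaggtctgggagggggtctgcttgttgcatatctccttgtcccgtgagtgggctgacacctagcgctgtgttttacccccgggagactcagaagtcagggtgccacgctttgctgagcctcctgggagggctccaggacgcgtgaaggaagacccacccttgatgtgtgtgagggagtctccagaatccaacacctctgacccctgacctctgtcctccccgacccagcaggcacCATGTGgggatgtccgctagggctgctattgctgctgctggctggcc
Timp3, GRCr8 chr7:19459509-19459808, minus strand: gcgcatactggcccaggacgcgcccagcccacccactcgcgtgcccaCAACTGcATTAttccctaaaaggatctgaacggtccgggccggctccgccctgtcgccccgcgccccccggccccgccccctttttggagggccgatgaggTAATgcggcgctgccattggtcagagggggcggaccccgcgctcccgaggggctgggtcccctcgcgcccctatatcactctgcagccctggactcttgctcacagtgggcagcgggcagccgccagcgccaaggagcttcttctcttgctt

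Timp3 encodes the TIMP that stays bound to the matrix and inhibits metalloproteinases there. It had 3 reads (0.228 RPKM, interval 0.0469 to 0.665) in transfected cells and 126 reads (9.08 RPKM, interval 7.57 to 10.8) in untransfected cells. With so few transfected reads the size of the difference was poorly fixed, at 39.9-fold lower with an interval of 13.4 to 196. Timp3 and Tinagl1 could not be ordered by ratio (quotient 1.35, interval 0.256 to 4.57). Even in untransfected cells Timp3 was far below Timp1, the secreted soluble TIMP, which had 960 RPKM in transfected cells and 235 RPKM in untransfected cells.

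Mmp2, gelatinase A, cuts denatured collagen and type IV collagen of basement membranes. It had 25301 reads (1118 RPKM, interval 1104 to 1131) in transfected cells and 10920 reads (459 RPKM, interval 450 to 467) in untransfected cells. Its ratio of 2.44 (interval 2.38 to 2.49) could not be told from that of Col8a1, with a quotient of 1.00 (interval 0.963 to 1.04). Mmp2 was the most abundant of the 9 genes per length in untransfected cells and came after Postn in transfected cells. The level of Mmp2 over that of Timp3 was 4912 (interval 1680 to 23818) in transfected cells and 50.5 (interval 42.3 to 60.7) in untransfected cells. The level of Mmp2 over that of Timp1 differed in the opposite direction, at 1.16 (interval 1.13 to 1.20) in transfected cells and 1.95 (interval 1.85 to 2.05) in untransfected cells. These quotients compare transcripts, and protein or enzyme activity was not measured.

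Serpinh1, the collagen chaperone HSP47 of the endoplasmic reticulum, had the smallest ratio of the 7 higher genes. It had 5588 reads (365 RPKM, interval 356 to 375) in transfected cells and 2759 reads (171 RPKM, interval 165 to 178) in untransfected cells. Its ratio was 2.13 (interval 2.04 to 2.23), and its direction turned under median-of-ratios scaling. Serpinh1 stood at 0.487 (interval 0.472 to 0.503) of the level of Col8a1 in transfected cells and at 0.557 (interval 0.532 to 0.583) in untransfected cells.

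**Figure D2:**
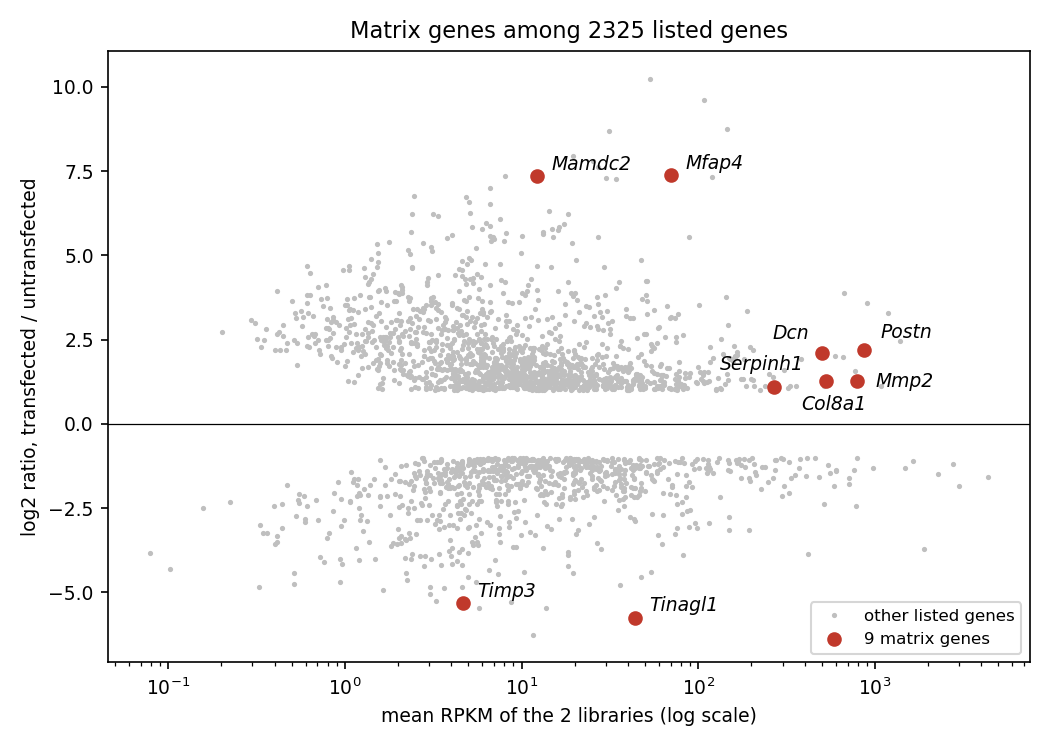
Log2 ratio of transfected over untransfected reads against mean RPKM of the libraries (log axis) for 2325 rows, with the 9 matrix genes in red; genes with 0 reads in a library are drawn at the 3-read floor. The empty band around 0 is the authors' selection, Mfap4 and Mamdc2 lie near the upper edge, Tinagl1 and Timp3 near the lower edge, and the other 5 lie at the right at high RPKM with small ratios.

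The members thus fell into an abundant group with modest ratios and a scarcer group with large ones. Postn, Mmp2, Dcn, Col8a1 and Serpinh1 had between 365 and 1415 RPKM in transfected cells and between 171 and 459 RPKM in untransfected cells, with ratios of 2.13 to 4.52. Mfap4, Mamdc2, Tinagl1 and Timp3 stayed at or below 139 RPKM in transfected cells and 86.1 RPKM in untransfected cells, and their differences were 39.9-fold or more in either direction. The descending order of RPKM in transfected cells was Postn, Mmp2, Dcn, Col8a1, Serpinh1, Mfap4, Mamdc2, Tinagl1 and Timp3, and the interval of every neighbouring quotient excluded 1. In untransfected cells the order was Mmp2, Postn, Col8a1, Dcn, Serpinh1, Tinagl1, Timp3, Mfap4 and Mamdc2. There, Postn and Col8a1 could not be separated (quotient 1.02, interval 0.982 to 1.05).

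Together the 9 genes took 90193 reads, or 1.22% of the transfected library (Clopper-Pearson interval 1.21 to 1.22), and 31263 reads, or 0.401% of the untransfected library (interval 0.396 to 0.405). Their summed level was 4626 RPKM in transfected cells and 1537 RPKM in untransfected cells. Postn made up 30.6% of that sum in transfected cells and 20.3% in untransfected cells. The shares of Mmp2 were 24.2% in transfected cells and 29.8% in untransfected cells. Tinagl1 made up 0.0345% in transfected cells, against 5.60% in untransfected cells.

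**Figure D3:**
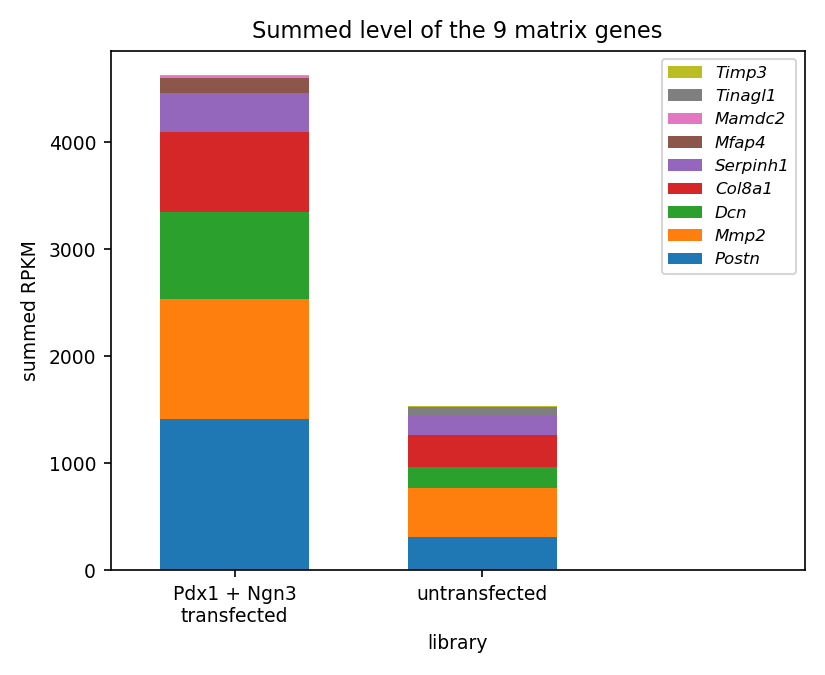
Summed RPKM of the 9 matrix genes in the transfected library (left bar) and the untransfected library (right bar), stacked by gene. The bars reach 4626 and 1537 RPKM, and most of either bar is Postn, Mmp2, Dcn, Col8a1 and Serpinh1.

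To place these genes among others of the matrix, 11 gene lists holding 281 genes were searched, of which 95 genes were in the table. In all, 50 of the 95 were higher and 45 lower, and without the 9 members the split was 43 higher and 43 lower. Over all 2325 rows, 63.5% were higher and 36.5% lower. The list genes were drawn only from the 1630 rows that matched a named gene, and the share among those rows is not given here. The summed level of the 95 genes was 12700 RPKM in transfected cells and 15958 RPKM in untransfected cells. Without the members it was 8074 RPKM in transfected cells and 14421 RPKM in untransfected cells, opposite in direction to the sum of the members. Under median-of-ratios scaling the direction of Serpinh1, Fbln2, Emilin1, Col15a1, Col17a1 and Adamts14 turned, which left 44 of the 95 above 0. The genes beside the members in the next paragraphs were the 3 listed genes with the highest mean RPKM in each list, and any others were named after their values were seen.

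Lists of fibre-building genes are given beside the 63.5% of all rows that were higher, since a share near that value says nothing particular of a list. Of the fibril-forming collagens 4 of 11 were in the table, 3 higher and 1 lower, with a median log2 ratio of 3.58. These 4 were Col5a3, Col27a1, Col24a1 and Col11a1, so the median does not cover the rest of the list. Col1a1 and Col1a2 were not among them. Col24a1 had 102 transfected and 6 untransfected reads. Col5a3, a minor chain of type V collagen, was 18.9-fold higher (97.1 RPKM in transfected cells and 5.13 in untransfected cells), and Col27a1 was 7.99-fold higher. Col11a1, a chain of type XI collagen, was 2.08-fold lower at 68.9 RPKM in transfected cells and 143 RPKM in untransfected cells. Among the other collagens 5 of 7 were higher and 2 lower, or 3 above and 4 below 0 under median-of-ratios scaling. The higher calls of this list fell to 1 under TMM scaling. They also fell to 1 under the 3-fold threshold and with the widened interval, beside 36.8% and 33.5% of all rows. Col8a1 held 76.5% of that list's summed RPKM in transfected cells and 63.5% in untransfected cells. Col18a1, a basement membrane collagen with heparan sulfate chains, was 7.24-fold higher, and Col6a1, a beaded filament collagen, was 3.65-fold lower.

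Proteoglycans were higher in 7 of 10 cases, a share near the 63.5% of all rows, with 4 higher calls under median-of-ratios scaling and a median log2 ratio of 2.06, and Dcn was the most abundant of them in both libraries. Vcan, the large hyaluronan-binding proteoglycan versican, was 3.80-fold higher and Aspn, asporin, a relative of decorin, 7.64-fold higher. Lum, lumican, another decorin relative, was 8.76-fold higher, while Fmod, fibromodulin, was 6.79-fold lower. The level of Dcn over that of Fmod was 124 (interval 105 to 147) in transfected cells and 4.27 (interval 3.97 to 4.60) in untransfected cells. Elastic fibre and microfibril genes were higher in 7 of 9 cases, or 5 of 9 above 0 under median-of-ratios scaling. Mfap4 had the highest ratio of these 9. Fbln2, fibulin 2, was 2.03-fold higher (below 0 under that scaling), and Ltbp1, a protein that binds latent TGF-beta, was 3.67-fold lower.

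Matricellular and adhesive proteins were split, with 6 higher and 6 lower. Thbs1, thrombospondin 1, had 1665 RPKM in transfected cells and 3835 RPKM in untransfected cells, and Ctgf, connective tissue growth factor, was 3.03-fold lower. The level of Postn over that of Thbs1 was 0.850 (interval 0.838 to 0.862) in transfected cells and 0.0815 (interval 0.0797 to 0.0834) in untransfected cells. Thbs2, a relative of Thbs1, was 3.82-fold higher.

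Basement membrane genes were lower in 10 of 13 cases, beside 36.5% of all rows, with a median log2 ratio of -1.31 beside 1.24 over all rows. At the 3-fold threshold 5 of the 13 were lower and 3 higher, beside 19.1% and 36.8% of all rows. With the widened interval 5 were lower and 3 higher, beside 17.2% and 33.5% of all rows. Tinagl1 had the lowest ratio of the 13. Col4a1, a main chain of type IV collagen, was 2.11-fold lower at 177 RPKM in transfected cells and 373 RPKM in untransfected cells. The nidogens Nid2 and Nid1, which link laminin to type IV collagen, were 3.81-fold and 2.26-fold lower. Lamb3, a laminin chain, was 15.1-fold lower, with 10 transfected and 159 untransfected reads. The exceptions in this list were Pxdn (3.88-fold higher), Col4a5 (3.06-fold higher) and Lamc3 (25.8-fold higher, with 98 transfected and 4 untransfected reads). Pxdn, peroxidasin, crosslinks type IV collagen. Col18a1, also a basement membrane collagen, was 7.24-fold higher but was counted with the other collagens and is not among the 13. The summed level of the list was 729 RPKM in transfected cells and 1396 RPKM in untransfected cells. The receptors through which cells hold on to matrix were lower in 7 of 9 cases beside 36.5% of all rows. At the 3-fold threshold 4 of the 9 were lower, beside 19.1% of all rows. With the widened interval 4 were lower too, beside 17.2% of all rows. Below 3-fold lay Itgb1, the shared beta 1 chain of many integrins (2.04-fold lower), Dag1, dystroglycan, a laminin receptor (2.64-fold lower), and Itga11, part of a collagen receptor (2.60-fold lower).

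**Figure D4:**
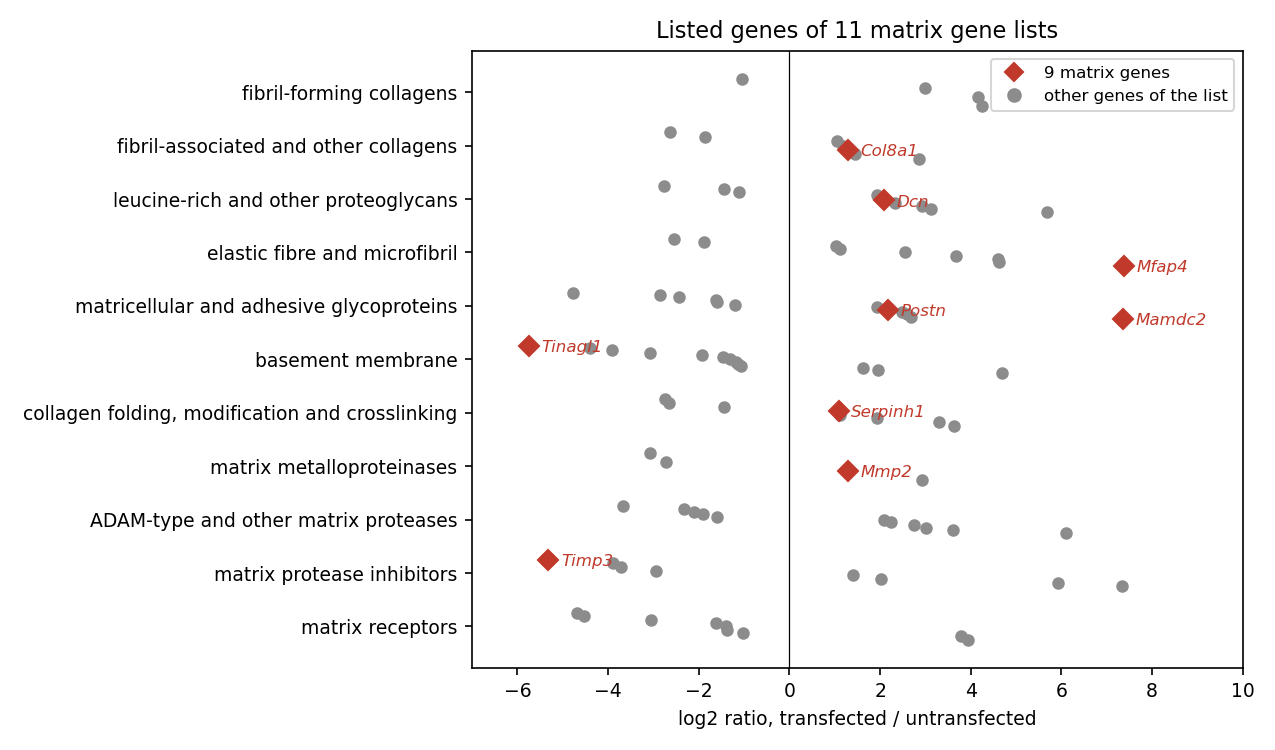
Log2 ratio of transfected over untransfected reads for each listed gene of 11 matrix gene lists; red diamonds are the 9 matrix genes and grey points the other genes, spread vertically only to separate them. Basement membrane genes and matrix receptors lie mostly left of 0 (10 of 13 and 7 of 9, beside 36.5% of all rows). Proteoglycan and microfibril genes lie mostly right of it (7 of 10 and 7 of 9, beside 63.5% of all rows). Under median-of-ratios scaling 4 proteoglycan genes were called higher and 5 of 9 microfibril genes lay above 0. The counts include the red diamonds.

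Collagen processing genes were split, 5 higher and 3 lower, or 3 above and 5 below 0 under median-of-ratios scaling. Serpinh1 was the most abundant of them in both libraries and held 48.2% of their summed RPKM in transfected cells and 48.8% in untransfected cells. Lox, lysyl oxidase, which crosslinks collagen and elastin, was 3.84-fold higher at 256 RPKM in transfected cells and 66.5 RPKM in untransfected cells. Its relative Loxl3 was 2.74-fold lower. Adamts2, a procollagen N-propeptidase, was 12.4-fold higher.

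Of 23 metalloproteinases 4 were in the table, 2 higher and 2 lower. Mmp2 held 98.3% of their summed RPKM in transfected cells and 76.2% in untransfected cells. Mmp3, stromelysin 1, was 8.45-fold lower at 16.0 RPKM in transfected cells and 135 RPKM in untransfected cells, and Mmp13, a collagenase, was 6.57-fold lower. The level of Mmp2 over that of Mmp3 was 69.9 (interval 61.0 to 80.4) in transfected cells and 3.39 (interval 3.23 to 3.57) in untransfected cells. Among 8 listed inhibitors 4 were higher and 4 lower, and Timp3 had the lowest ratio. Timp1 was 4.08-fold and the serpin Serpina3n 162-fold higher. Of 11 other matrix proteases 6 were higher and 5 lower, with Adam19, Adamts1 and Prss23 at 3.03-fold, 4.98-fold and 4.30-fold lower.

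**Figure D5:**
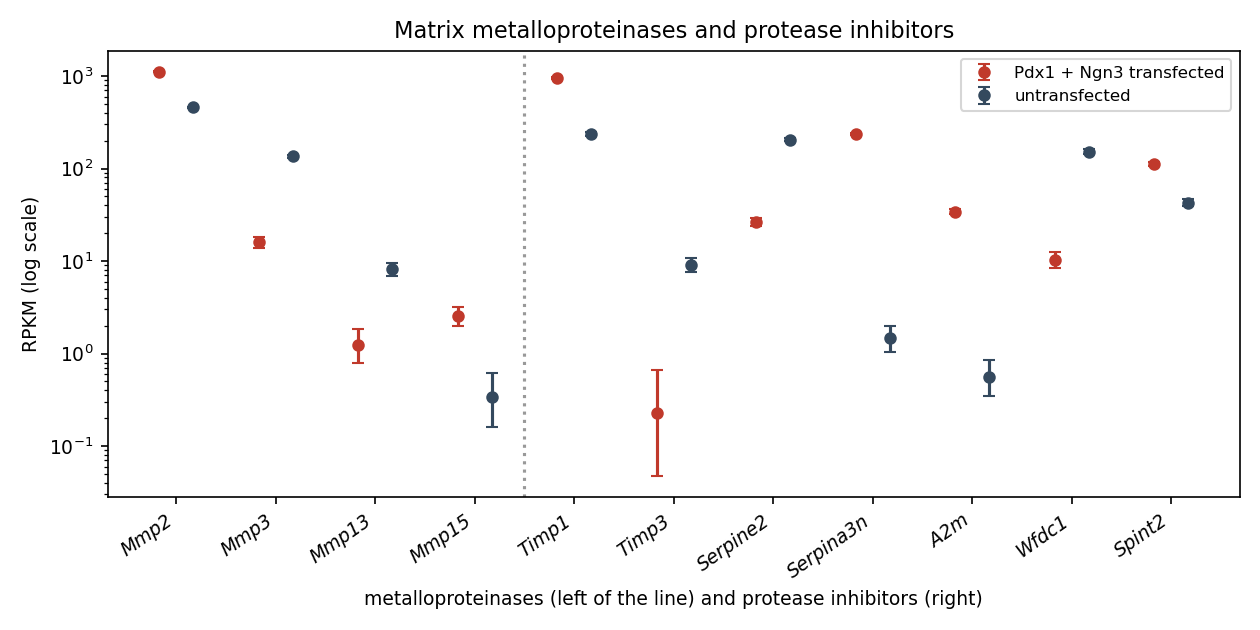
RPKM (log axis) of the 4 listed metalloproteinases (left of the dotted line) and 7 of the 8 listed protease inhibitors (right of it) in the transfected library (red, left of each pair) and the untransfected library (dark, right), with exact 95% Poisson intervals. Mmp2 and Timp1 are higher in transfected cells, and Mmp3 and Timp3 are lower there.

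Features outside the counts were also compared. In the functional annotation deposited with the counts, 75 rows carried an extracellular matrix component term, 52 of them higher and 23 lower, close to the split of all rows (63.5% higher), with Postn, Col8a1, Mamdc2, Mmp2 and Timp3 among them. Dcn and Mamdc2 shared the process term peptide cross-linking with 2 other rows, and all 4 were higher. Timp3 and Serpinh1 shared the term for negative regulation of peptidase activity (12 higher and 14 lower of 26 rows), although the serpin fold of Serpinh1 serves collagen folding and inhibits no known protease.

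RefSeq promoters were found for 6 of the 9 genes. An E-box stood in the windows of 4 of these 6 (Postn, Col8a1, Tinagl1 and Timp3), beside 73.2% of 27457 genes with a promoter. The windows of Mamdc2 and Serpinh1 held none. The only E-box match of Tinagl1 lay after the gene start, at position 4, and not upstream of it. The TAAT core stood in 3 (Postn, Mamdc2 and Timp3), beside 61.3% of all genes, and the M-CAT motif in 1, Mamdc2, beside 15.0% of all genes. Among the 1286 genes of the deposited table with a promoter, 66.8% held an E-box, 41.4% a TAAT core and 13.1% an M-CAT motif. Both higher and lower members held E-boxes and TAAT cores, and a share out of 6 genes shifts much with 1 gene. No matches overlapped, both strands were searched, and a match describes letters, not binding.

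By log2 ratio and log2 mean RPKM over the 2 libraries, the named gene nearest to each member (Euclidean distance) was Sod3 for Postn (0.434), Timp1 for Dcn (0.260), Mmp2 for Col8a1 (0.576), Cpe for Mmp2 (0.285) and Gpnmb for Serpinh1 (0.0643). The nearest were Serpina3n for Mfap4 (0.766), Mybpc1 for Mamdc2 (0.605), Wisp2 for Tinagl1 (1.02) and Hmga2 for Timp3 (0.486). Any 2 genes with like values in 2 libraries are near by this measure.

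Markers of the labelled cells and of other cell types were compared because a change in the mixture of cells, fewer cells of a type and less RNA per cell cannot be told apart in bulk RNA. Of 16 mesenchymal stromal markers 6 were in the table, 3 higher and 3 lower, beside 63.5% and 36.5% of all rows. These 6 markers summed to 991 RPKM in transfected cells and 2231 RPKM in untransfected cells. Smooth muscle and pericyte markers were in the table in 8 of 10 cases, 7 of them lower, beside 36.5% of all rows. With the widened interval 6 were lower, beside 17.2% of all rows. The 8 markers summed to 3598 RPKM in transfected cells and 12261 RPKM in untransfected cells. The summed level was 3.45 and 12.4 RPKM in transfected and untransfected cells for the 3 listed of 16 blood markers, 1.57 and 5.30 for the 1 listed of 10 endothelial markers, and 0.635 and 8.32 for the 2 listed of 10 osteoblast markers. For the 2 listed of 10 chondrocyte markers it was 7.64 and 8.65 RPKM in transfected and untransfected cells, and for the 2 listed of 10 adipocyte markers 45.8 and 15.2. Within the blood, chondrocyte and adipocyte sums the markers went both ways, with Cd68, Cilp and Lpl higher and Cd74, RT1-Db1, Acan and Scd1 lower. Of these markers, the pericyte gene Rgs5 alone had a library at 0 reads (39 reads in transfected and 0 in untransfected cells). The lower smooth muscle and pericyte markers ran in the same direction as Tinagl1, Timp3 and the basement membrane list, and their part in those differences was not tested.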

How the data were processed

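RNA of 1 Pdx1 + Ngn3 transfected and 1 untransfected library was sequenced after oligo(dT) selection and random-hexamer priming, per the labels' protocols. The submitters' processing notes name genome build rn4, and no aligner or counter is named in the sources used here. The deposited read counts are whole numbers without scaling. The deposited RPKM values equal counts divided by length and library total, per the file headers and values, with 0.001 written for 0 reads. The authors' log2 ratio, p-value and false discovery rate were deposited too. The p-values rest on 1 library per condition and were not used.

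Library totals were recovered from counts, length and RPKM (1 untransfected row gave another total). Ratios carry exact Clopper-Pearson 95% intervals, levels exact Poisson intervals (scipy 1.17.1), and quotients of ratios conditional exact intervals. The ratio intervals and calls were run on simulated Poisson counts with known folds. These counts had no spread between cultures, so the simulation tells nothing of that spread. A count of 0 was set to a floor of 3 reads for folds. Intervals and floors cover counting error only, since amplified reads with no molecular identifiers do not count molecules. TMM (edgeR 4.0.16) and median-of-ratios factors (DESeq2 1.42.0) were alternatives. The members, lists and naming rule (all members, the 3 listed genes of highest mean RPKM per list, the markers and the nearest gene to each member) were chosen with earlier results of these data known. RefSeq names and promoters come from GRCr8, matched by gene identifier, and 1630 of the 2325 rows matched a named gene. Quotients between genes were chosen after their values were seen. Neurog3 and protein sequences were not analysed here, and some genes that the rule names are not reported here.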

Additional observations from a re-analysis of the deposited data

How the results depend on the processing

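On these rows, all selected for change, TMM scaling moved every log2 ratio by -0.78 and median-of-ratios scaling by -1.20, and scaling by the sums of the table columns moved them by 0.10. The 7 higher members became 4 under TMM scaling (Postn, Dcn, Mfap4 and Mamdc2) and 2 under median-of-ratios scaling (Mfap4 and Mamdc2), beside 46.4% and 37.6% of all calls being higher under these scalings and 63.5% by library totals. After the shift of -1.20 the log2 ratio of Serpinh1 was -0.11 and that of Mmp2 and of Col8a1 0.08. With a threshold of 3-fold, or with an interval widened by an assumed biological coefficient of variation of 0.4, 4 members were higher (36.8% and 33.5% of all rows) and both lower ones stayed. A minimum of 10 reads in each library left 6 higher members and 1 lower member. Mamdc2, a higher member, and Timp3, a lower member, had fewer reads in 1 library. The 50 higher genes of the matrix lists became 30 under median-of-ratios scaling, with 45 lower. Their median log2 ratio, 1.09, became -0.11 under that scaling and -1.04 with the read minimum. A median of rows that have none near 0 jumps between the sides. With a pseudocount of 1 RPKM the log2 ratio of Mamdc2 was 4.67 in place of 7.36 and that of Timp3 -3.04 in place of -5.32. The TAAT core was in 1 member on the forward strand, beside 44.8% of all genes with a promoter. No paired analysis was possible because each group has 1 library, and no library could be left out. The features planned from protein sequences were not run. Depth limits Mamdc2 (0 untransfected reads), Timp3 (3 transfected reads), Mfap4 (10 untransfected reads) and Tinagl1 (23 transfected reads) most.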
